A study of Mus musculus with 6 samples.

Results

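Macrophages are the resident immune cells of the pancreatic islet, where they lie against the capillaries and among the hormone cells, take up secreted and dying material and present antigen. They depend on CSF1R, the receptor for the growth factors CSF1 and IL-34, and on the transcription factor PU.1. They are recognised by the complement subunits C1QA, C1QB and C1QC, by the surface proteins F4/80 (encoded by *Adgre1*), CD14 and CD206 (encoded by *Mrc1*), and by the lysosomal proteins CD68 and lysozyme. FXR, encoded by *Nr1h4*, is a nuclear receptor activated by bile acids, and macrophages outside the islet are among the cells in which it has been studied.

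The 10 macrophage genes described here, *C1qa*, *C1qb*, *C1qc*, *Cd68*, *Adgre1*, *Csf1r*, *Lyz2*, *Mrc1*, *Cd14* and *Fcgr3*, were taken by gene symbol from the 19342 genes with counts. All 10 were found, and all 10 were among the 14619 genes that passed the filter on low counts. The counts came from poly(A)-selected RNA of whole islets freed from the pancreas of 3-month-old mice with collagenase. FXR+/+ mice (labelled wild type) and FXR-/- mice (labelled FXR knockout, on a C57Bl/6 background) each gave 3 libraries, 1 from females (female 1) and 2 from males (male 1 and male 2). No diet or drug is named for either genotype, and the labels do not say how many mice went into a library, so p-values describe the spread between these libraries. The islets were not sorted, and in such bulk RNA fewer macrophages and less RNA of a gene per macrophage cannot be told apart.

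The libraries held 20629306 to 30139235 counts. *Nr1h4*, the targeted gene, was at 14.2, 13.6 and 12.2 CPM (counts per 1000000 counts, scaled with the trimmed mean of M values, TMM) in the FXR+/+ libraries and at 5.67, 7.63 and 5.81 CPM in the FXR-/- libraries, so its RNA was lower in every FXR-/- library but was still counted there. Counts of *Ins1* and *Ins2*, the insulin genes, made up 17.5% to 23.9% of the libraries. Counts of 18 acinar genes, most of which encode digestive enzymes and which mark exocrine tissue carried along with the islets, made up 5.30%, 13.3% and 4.74% of the FXR+/+ libraries and 6.81%, 13.8% and 8.54% of the FXR-/- libraries (female 1, male 1 and male 2 throughout).

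C1q is the recognition molecule of the classical complement pathway, and its A, B and C chains are encoded by 3 neighbouring genes. In GENCODE vM21 on GRCm38 they lie on the minus strand of chromosome 4, with *C1qb* at chr4:136880129-136886187, *C1qc* at chr4:136889804-136893065 and *C1qa* at chr4:136895917-136898803. The whole cluster spans 18675 bases, with gaps of 3616 and 2851 bases between the genes. Promoters of *C1qb* and *C1qc* are shown because both chains were higher in FXR-/- libraries without overlap (below), and that of *Cd68* as a macrophage gene from another chromosome. The sequences are those of RefSeq on GRCm38.p6, minus strand, written 5′ to 3′ and ending before the outermost annotated start of each gene. Capitals mark the PU.1 core GAGGAA or its reverse complement.
C1qb promoter, chr4:136886201-136886450: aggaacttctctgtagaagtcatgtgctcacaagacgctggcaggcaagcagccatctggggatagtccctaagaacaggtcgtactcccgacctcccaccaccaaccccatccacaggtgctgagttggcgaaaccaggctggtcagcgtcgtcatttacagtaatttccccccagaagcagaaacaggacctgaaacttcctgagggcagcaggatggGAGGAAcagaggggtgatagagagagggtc
C1qc promoter, chr4:136893066-136893164: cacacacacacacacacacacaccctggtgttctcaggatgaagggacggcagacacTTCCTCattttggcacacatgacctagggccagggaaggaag
Cd68 promoter, chr11:69666171-69666420: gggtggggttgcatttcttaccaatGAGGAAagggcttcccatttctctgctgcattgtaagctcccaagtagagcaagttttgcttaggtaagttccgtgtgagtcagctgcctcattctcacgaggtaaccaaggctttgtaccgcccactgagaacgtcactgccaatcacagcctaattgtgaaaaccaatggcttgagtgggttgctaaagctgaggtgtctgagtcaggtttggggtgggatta

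Windows of 250 bases before to 50 bases after the start were searched on both strands for 6 of the 10 genes (*C1qb*, *C1qc*, *Lyz2*, *Cd68*, *Mrc1* and *Fcgr3*). Chromosome 18, which holds *Csf1r* and *Cd14*, was left out of the search and of the background. The PU.1 core was present in 5 of these 6, the exception being *Lyz2*, against 28.3% of the 27025 genes searched. The nuclear receptor motif AGGTCA, part of the element that FXR binds with its partner RXR, was present in *C1qc* alone among the 6, against 16.0% of the genes searched. Its inverted repeat with 1 base between the copies was found in 0.0111% of the genes searched and in none of the 6. A match in such a window is a description of the letters only.

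Of the 10 genes, 8 had a log2 fold change above 0 (FXR-/- over FXR+/+) in a fit with sex and genotype, with a median of 0.34, while 51.6% of all genes tested were above 0, with a median of 0.01. None of the 10 passed an adjusted p of 0.05 in edgeR's quasi-likelihood test with Benjamini-Hochberg adjustment, and 0% of the 14619 genes did. At an unadjusted p under 0.05, 4 of the 10 were higher in FXR-/- islets (*C1qa*, *C1qb*, *C1qc* and *Csf1r*) and none of the 10 was lower, against 6.18% of all genes higher. In 3 of the 10 (*C1qb*, *C1qc* and *Csf1r*) every FXR-/- library lay above every FXR+/+ library, as did 8.02% of all genes. In 6 of the 10 the FXR-/- library was the higher of each same-numbered pair, as in 20.4% of all genes. No label states that same-numbered libraries are pairs, and they were taken as pairs because they were most alike in these same data. When pairs replaced sex in the fit (the replicate block), 0.157% of all genes and none of the 10 passed. In the plot of CPM by library, male 2 of FXR+/+ was the lowest library for 9 of the 10 genes, and male 1 of FXR-/- the highest for 8.

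**Figure D1:**
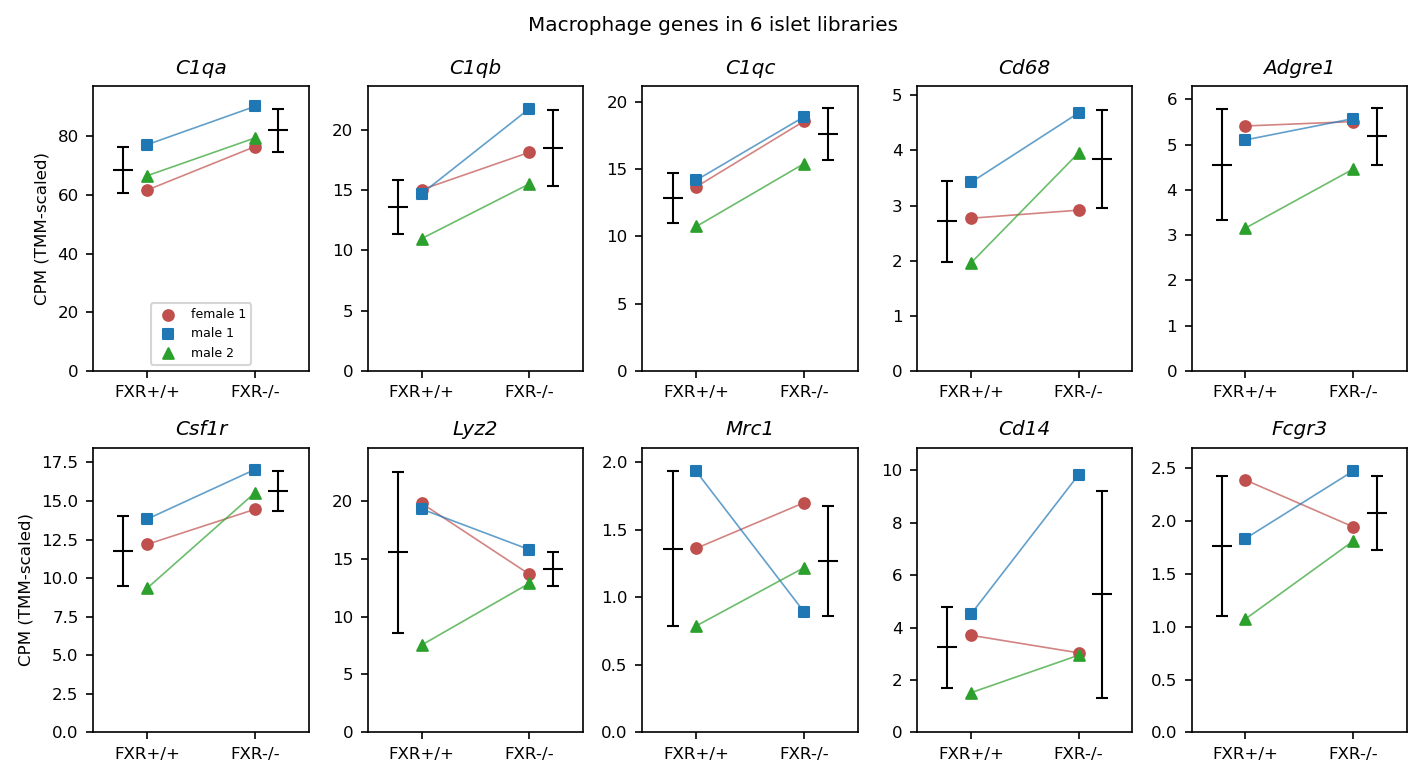
CPM (y axis, linear from 0, TMM-scaled) of each macrophage gene in the 3 FXR+/+ and 3 FXR-/- libraries. Circles are female 1, squares male 1 and triangles male 2, lines join libraries of the same number, and the black marks are the mean and SD of 3 libraries. All lines slope upward for the 3 C1q genes, *Cd68*, *Adgre1* and *Csf1r*, whereas *Lyz2*, *Mrc1*, *Cd14* and *Fcgr3* have lines in both directions.

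The C1q genes were the most evenly placed of the set. *C1qa* (1447 to 2109 counts a library) was at 61.7, 77.2 and 66.6 CPM in FXR+/+ islets and at 76.5, 90.2 and 79.4 CPM in FXR-/- islets. Each FXR-/- library was above its same-numbered partner, by ratios of 1.24, 1.17 and 1.19, but the genotypes overlapped because male 1 of FXR+/+ was just above female 1 of FXR-/-. The means were 68.5 ± 7.92 and 82.0 ± 7.22 CPM (SD, n = 3), or 0.26 on the log2 scale (SE 0.092, adjusted p = 0.450 by edgeR).

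*C1qb* was at 15.05, 14.7 and 11.0 CPM in FXR+/+ libraries and at 18.1, 21.8 and 15.5 CPM in FXR-/- libraries. The genotypes did not overlap, although female 1 of FXR+/+ and male 2 of FXR-/- were close. The means of 13.6 ± 2.26 and 18.5 ± 3.14 CPM (SD, n = 3) corresponded to a log2 fold change of 0.45 (SE 0.173, adjusted p = 0.461 by edgeR).

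*C1qc* was at 13.7, 14.2 and 10.7 CPM against 18.6, 18.9 and 15.4 CPM. Its libraries did not overlap, and the 3 pair ratios of 1.36, 1.33 and 1.43 were the most alike after those of *C1qa*. The means were 12.9 ± 1.86 and 17.6 ± 1.92 CPM (SD, n = 3), and the log2 fold change of 0.46 (SE 0.143) had the lowest adjusted p of the 10 genes, 0.430 by edgeR, or 0.112 with the replicate block. For a gene whose libraries do not overlap, an exact two-sided permutation test of 3 against 3 gives p = 0.1, which is the smallest value that this design allows.

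Of the chains, the B and C genes kept the closest proportion. The ratio of *C1qb* to *C1qc* counts was 1.10, 1.04 and 1.02 in FXR+/+ and 0.978, 1.15 and 1.01 in FXR-/- libraries. The ratio of *C1qa* to *C1qb* counts varied more, from 4.10 to 6.06 in FXR+/+ and from 4.14 to 5.12 in FXR-/-. It was highest in male 2 of FXR+/+, the library in which *C1qb*, *C1qc* and most other macrophage genes were lowest and *C1qa* was not.

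CSF1R is the tyrosine kinase receptor on which macrophage survival depends. *Csf1r* (chr18:61100598-61132149, plus strand) was at 12.2, 13.8 and 9.34 CPM in FXR+/+ and at 14.5, 17.0 and 15.5 CPM in FXR-/- islets. The genotypes did not overlap. The means were 11.8 ± 2.27 and 15.7 ± 1.30 CPM (SD, n = 3), or 0.41 on the log2 scale (SE 0.164, adjusted p = 0.469 by edgeR). Its pair ratios were 1.19, 1.23 and 1.66, so the pair with the low FXR+/+ library differed most. *Csf1r* shares 873 exon bases with *Hmgxb3* on the other strand, and whether reads were assigned by strand is not stated.

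The pan-macrophage markers differed less clearly. *Cd68*, which encodes a lysosomal membrane glycoprotein (chr11:69664213-69666153), was at 2.77, 3.42 and 1.96 CPM in FXR+/+ and 2.92, 4.68 and 3.96 CPM in FXR-/- islets. Each pair was higher in FXR-/-, by ratios of 1.05, 1.37 and 2.02, but the genotypes overlapped (log2 fold change 0.50, SE 0.270, adjusted p = 0.525 by edgeR).

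*Adgre1*, which encodes F4/80, the surface protein most used to stain mouse macrophages (chr17:57358691-57483527), was at 5.41, 5.10 and 3.16 CPM against 5.51, 5.57 and 4.46 CPM. The genotypes overlapped, male 2 was the lowest library of each, and the pair ratios of female 1 and male 1 were 1.02 and 1.09. The log2 fold change was 0.20 (SE 0.223, adjusted p = 0.735 by edgeR), and it was -0.0058 without male 2 of FXR+/+.

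*Lyz2*, the lysozyme gene of myeloid cells (chr10:117277331-117282321), had, like *Mrc1*, a lower mean in FXR-/- islets. It was at 19.8, 19.3 and 7.54 CPM in FXR+/+ and at 13.7, 15.8 and 12.9 CPM in FXR-/- libraries. The FXR-/- libraries lay between the low male 2 and the other FXR+/+ libraries, and the means of 15.5 ± 6.92 and 14.1 ± 1.503 CPM (SD, n = 3) gave a log2 fold change of -0.11 (SE 0.325, adjusted p = 0.907 by edgeR). Its direction turned with single libraries, from -0.48 without male 2 to 0.26 without male 1 of FXR+/+. *Lyz1*, a close copy that could share reads with it, had 1 to 27 counts a library. *Lyz2* and *Nr1h4* are both on chromosome 10, 27.7 Mb apart.

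*Mrc1* encodes the mannose receptor CD206 of tissue macrophages (chr2:14229392-14332057) and was the least abundant of the 10, with 17 to 42 counts a library. It was at 1.36, 1.93 and 0.789 CPM against 1.70, 0.894 and 1.22 CPM. The order of the libraries differed from that of the other macrophage genes: male 1 was lower in FXR-/-, by a ratio of 0.463, and the other pairs were higher. The log2 fold change was -0.07 (SE 0.397), with a 95% interval from -0.996 to 0.86.

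Of the receptors for microbial products and antibody, *Cd14*, which encodes the lipopolysaccharide co-receptor (chr18:36725067-36726798), was at 3.71, 4.51 and 1.52 CPM in FXR+/+ and 3.04, 9.83 and 2.95 CPM in FXR-/- islets. Male 1 of FXR-/- stood above all other libraries, and the genotypes otherwise overlapped. The log2 fold change of 0.66 (SE 0.572, adjusted p = 0.660 by edgeR) was -0.12 without that library.

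*Fcgr3*, which encodes a low-affinity receptor for IgG (chr1:171051174-171064935), was at 2.39, 1.83 and 1.07 CPM against 1.94, 2.47 and 1.81 CPM. Its libraries overlapped, and female 1 was lower in FXR-/- while both males were higher. The log2 fold change was 0.27 (SE 0.322, adjusted p = 0.752 by edgeR), and it was -0.028 without male 2 of FXR+/+. *Fcgr3* lies among related receptor genes, and how reads matching several of them were counted is not stated.

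**Figure D2:**
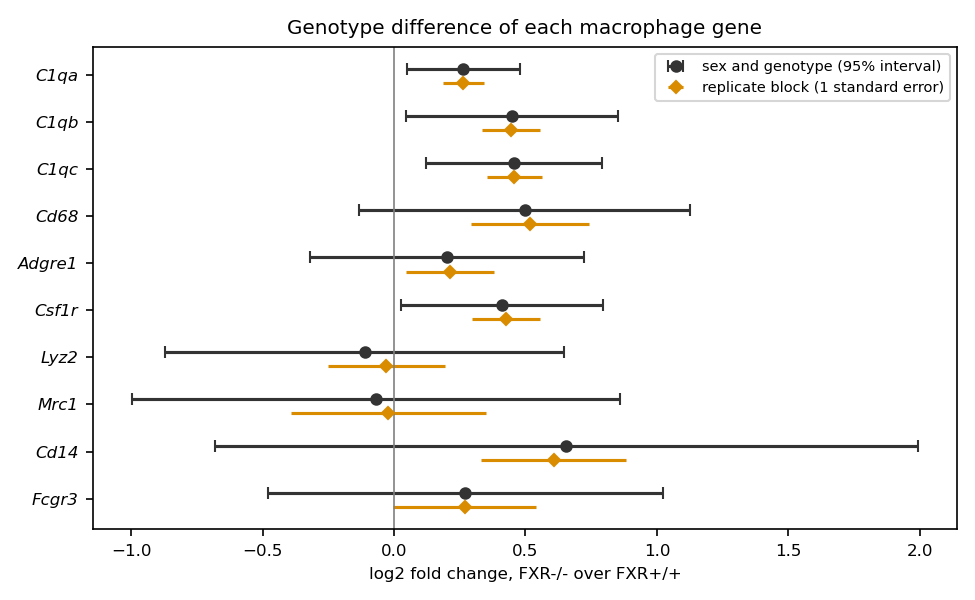
Log2 fold change (x axis) of each macrophage gene, FXR-/- over FXR+/+, from the fit with sex and genotype (circles, 95% interval) and from the fit with the replicate block (diamonds, 1 standard error). The intervals of *C1qa*, *C1qb*, *C1qc* and *Csf1r* lie above 0 and those of the other 6 genes include 0, before adjustment over all genes.

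Summed over the 10 genes, the macrophage RNA was 138, 156 and 114 CPM in FXR+/+ libraries and 156, 187 and 153 CPM in FXR-/- libraries. The genotypes overlapped, since male 1 of FXR+/+ was above male 2 of FXR-/-. The mean was 136 ± 21.2 against 166 ± 18.7 CPM (SD, n = 3), a ratio of 1.22. *C1qa* held 44.7% to 58.6% of the counts, and the ratio without it was 1.24. A different genotype effect in males and females was not detected for any of the 10 genes (adjusted p of 0.9999 each by edgeR), in a test that rests on 1 female library a genotype.

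Levels between genes were compared per kilobase of annotated exon, as means over the 6 libraries. *C1qa* was far above the rest at 72.4 CPM per kilobase, followed by *C1qb* at 14.7, *Lyz2* at 11.3 and *C1qc* at 7.89. The ranges of the last 3 over libraries overlapped in part, *C1qb* running from 10.1 to 20.01, *Lyz2* from 5.73 to 15.03 and *C1qc* from 5.56 to 9.78 CPM per kilobase. *Cd68* at 2.61, *Cd14* at 2.46 and *Csf1r* at 2.38 could not be ordered against their spread, and *Adgre1* at 1.504, *Fcgr3* at 1.11 and *Mrc1* at 0.207 CPM per kilobase were lowest.

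The counts per exon show where on each gene the reads lay. In the exon counts, 97.2% of *C1qa*, 98.9% of *C1qb*, 99.6% of *C1qc* and 99.8% of *Lyz2* fell in the exon nearest the 3′ end, and the median over the 10 genes was 95.01%. Over 13306 genes the median was 80.5%, with similar medians in FXR+/+ (80.7%) and FXR-/- (80.2%) libraries. *Cd68* was the exception, with 28.2%. How reads were assigned to exons is not stated, and in a library the exons together held 32.3% to 36.6% of what the genes held. *Adgre1* kept 6.78% of its gene counts there.

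**Figure D3:**
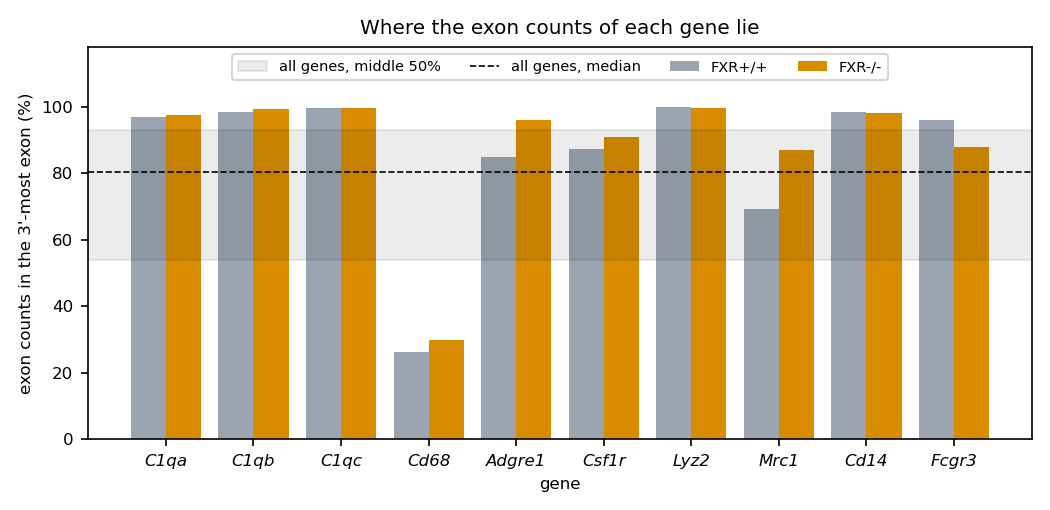
Share of each macrophage gene's exon counts that fell in its 3′-most listed exon (y axis, percent), summed over the 3 FXR+/+ (grey) and 3 FXR-/- (orange) libraries. The dashed line and the shaded band are the median (80.5%) and the middle 50% of 13306 genes. Both bars of the C1q genes, *Lyz2* and *Cd14* lie above the band and both bars of *Cd68* below it. The FXR+/+ bar of *Fcgr3* and the FXR-/- bar of *Adgre1* also lie above the band.

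Within the last exon, counts per 100 bases were 849 for *C1qa*, 185 for *C1qb* and 201 for *C1qc*, so *C1qc* stood level with *C1qb* on this scale, whereas it was lower per kilobase of annotated exon, which for *C1qc* totals 1931 bases. The last exons gave log2 fold changes of 0.29 (SE 0.124) for *C1qa*, 0.48 (SE 0.169) for *C1qb*, 0.48 (SE 0.158) for *C1qc* and 0.55 (SE 0.213) for *Csf1r*, close to those of the gene counts. *Fcgr3* differed, since its last exon had 26, 24 and 22 counts in the FXR+/+ libraries, against 12, 16 and 16 counts. Scaled for depth they were 1.11, 1.19 and 0.694 CPM against 0.486, 0.841 and 0.673 CPM, so that the genotypes overlapped. The log2 fold change of -0.57 (SE 0.364) had the opposite direction to that of the gene count. No exon of the 10 genes passed an adjusted p of 0.05 by edgeR, against 5 of 26998 exons tested.

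Macrophage genes outside the 10 were compared with a list of 18 identity genes. Of these, 14 were higher and 4 lower in FXR-/- islets (median log2 fold change 0.30), 4 at an unadjusted p under 0.05 and none passing. Among them, the lysosomal proteases *Ctss* and *Lgmn* had log2 fold changes of 0.34 (SE 0.132) and 0.29 (SE 0.133). The summed list overlapped, at 153 to 259 CPM in FXR+/+ and 214 to 264 CPM in FXR-/-, with male 2 of FXR+/+ lowest.

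*Fcer1g* encodes the signalling chain shared by Fc receptors, including the product of *Fcgr3*. It was at 5.41, 5.65 and 3.50 CPM in FXR+/+ and at 10.1, 9.99 and 9.68 CPM in FXR-/- islets. The FXR-/- libraries were nearly equal and all lay above the FXR+/+ libraries. The log2 fold change of 1.04 (SE 0.196) was larger than for any of the 10 macrophage genes but did not pass (adjusted p = 0.235, or 0.0574 with the replicate block, both by edgeR). Of the 5 genes on the Fc gamma receptor list 4 were higher, with a median of 0.39. *Fcgrt*, the neonatal Fc receptor, was at 0.39 (SE 0.215) and *Fcgr2b*, the inhibitory receptor, at -0.04 (SE 0.441) on the log2 scale.

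Other genes of the CSF1R and complement systems were mostly higher in FXR-/-, without passing. All 4 tested genes of CSF1R and GM-CSF signalling were above 0, with a median of 0.24. The ligand gene *Csf1* was at 19.2 ± 2.75 and 20.8 ± 5.05 CPM (SD, n = 3), and the receptor subunits *Csf2ra* and *Csf2rb* had log2 fold changes of 0.17 (SE 0.136) and 0.36 (SE 0.318). Of 10 complement genes 9 were higher, with a median of 0.44, and none had an unadjusted p under 0.05. *Serping1*, the C1 inhibitor, was at 0.16 (SE 0.148), *C4b* at 0.32 (SE 0.508) and *Cd93*, which endothelium also expresses, at 0.62 (SE 0.298).

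Of 9 genes of the CD14 pathway 5 were higher and 4 lower, with a median of 0.02. *Tlr2* was at 0.16 (SE 0.205), *Traf6* at -0.12 (SE 0.093) and *Ticam1* at 0.02 (SE 0.113). Of 9 tested genes of MHC class II presentation 7 were higher, with a median of 0.14. *Cd74*, the invariant chain, had the largest level at 173 ± 45.7 and 237 ± 53.4 CPM (SD, n = 3) and a log2 fold change of 0.45 (SE 0.224).

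Scavenger receptors were mixed, with 5 of 8 tested genes higher. *Lyve1*, found on a class of tissue macrophages and on lymphatic endothelium, was lower in FXR-/- islets without overlap, at 23.1, 20.6 and 23.6 CPM against 13.5, 15.2 and 12.8 CPM. Its log2 fold change was -0.70 (SE 0.115), with an adjusted p of 0.225, or 0.0667 with the replicate block, by edgeR. *Axl* and *Stab1* were at 0.29 (SE 0.137) and 0.29 (SE 0.179).

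Activation genes varied far more between libraries than the identity genes did. *Il1b*, which encodes a cytokine, was at 6.28 ± 5.33 and 5.62 ± 3.84 CPM (SD, n = 3). *Cxcl10*, an interferon-inducible chemokine, was at 0.554, 1.98 and 0.379 CPM in FXR+/+ and 2.47, 7.10 and 1.26 CPM in FXR-/- islets. The genotypes overlapped, yet every pair was higher in FXR-/-, by ratios of 4.46, 3.58 and 3.33. Its log2 fold change of 1.97 (SE 0.749) had an adjusted p of 0.458 with sex in the model and passed with the replicate block at 0.0441, by edgeR. No other gene on any list passed in either fit. *Arg1* and *Cxcl2* were at 0.18 (SE 0.161) and 1.24 (SE 1.27).

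Markers of other leukocytes were mixed. None of 8 neutrophil genes passed the filter, and their sum reached at most 3.91 CPM. Of the monocyte genes, *Ccr2* was at 0.966 ± 0.322 and 1.70 ± 0.787 CPM and *Plac8* at 1.94 ± 0.477 and 1.15 ± 0.446 CPM (SD, n = 3). *Ccr2* was higher in FXR-/- in each pair, by ratios of 1.93, 1.44 and 1.76. The dendritic cell genes were 3 higher and 2 lower. The most abundant of them, *Itgax*, which encodes the integrin CD11c and is also expressed by macrophages, was at 5.37, 6.39 and 4.20 CPM in FXR+/+ and 9.76, 7.63 and 5.89 CPM in FXR-/- islets. Its genotypes overlapped, but each pair was higher in FXR-/- (log2 fold change 0.53, SE 0.219, adjusted p = 0.478 by edgeR). All 4 tested B and T lymphocyte genes were lower in FXR-/-, with a median of -0.86 and summed levels of 20.9 to 46.2 CPM against 16.0 to 26.5 CPM.

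Markers of several, but not all, other cells that come with the islet were also higher. Of 5 tested ductal genes 4 were higher and 1 lower. The only tested mast cell gene, *Kit*, and the only tested red blood cell gene were lower. The other mast cell genes had at most 3 counts a library, so the *Kit* value cannot be assigned to mast cells. All 7 endothelial genes were higher in FXR-/- islets (median log2 fold change 0.51), and their sum was 384 to 482 CPM in FXR+/+ and 496 to 778 CPM in FXR-/-. All 9 stellate and fibroblast genes were higher (median 0.76), with sums of 156 to 270 CPM and 239 to 307 CPM. Of the 18 acinar genes 16 were higher (median 0.42). Of 10 immediate early genes, which respond to tissue isolation, 9 were higher (median 0.18), and their sum ran from 335 CPM in male 2 of FXR+/+ to 6591 CPM in male 1 of FXR-/-. None of these genes passed, and no marker on the endothelial, stellate and fibroblast, acinar and immediate early lists was at 0 in all libraries. With the summed acinar level as a term in the fit, 5 of the 10 macrophage genes were higher in FXR-/-. The part of these cells and of tissue isolation in the macrophage values was not tested.

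**Figure D4:**
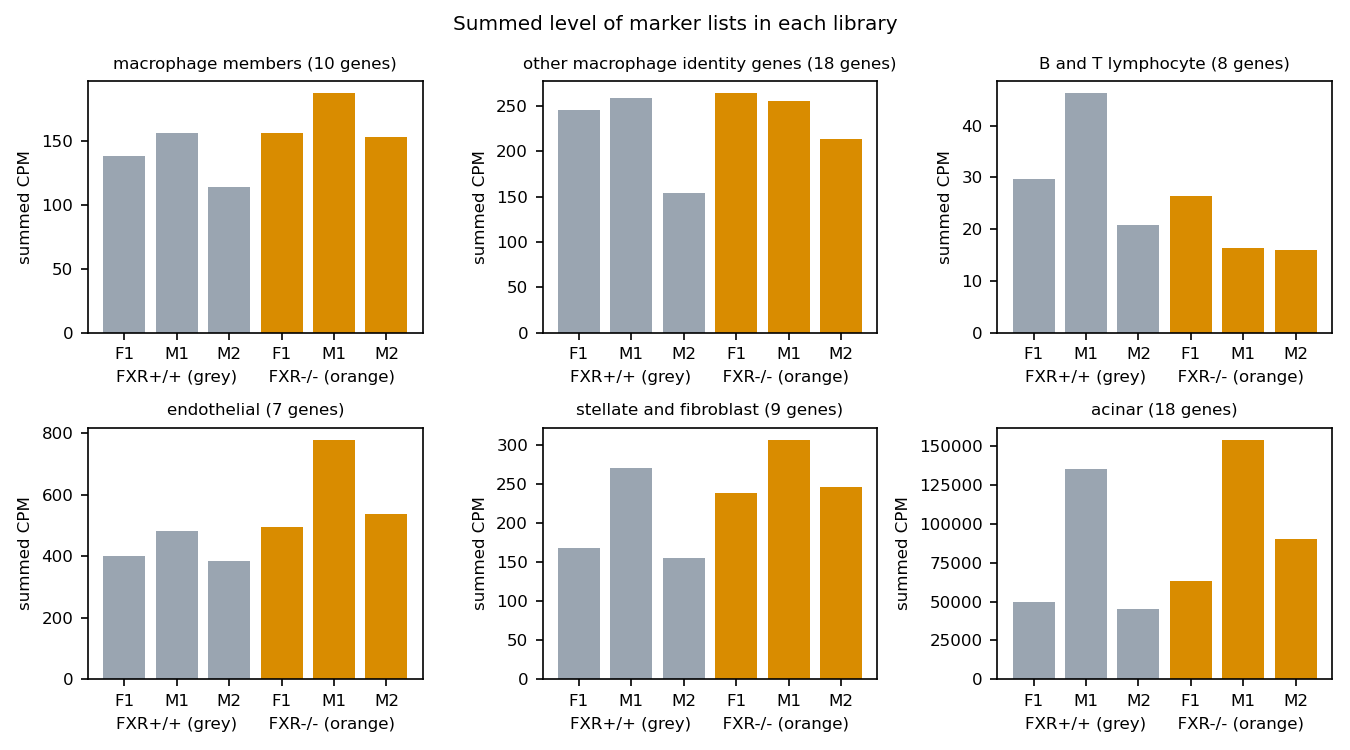
Summed CPM (y axis, linear from 0) of the 10 macrophage genes and of 5 other lists in each library, FXR+/+ in grey and FXR-/- in orange (F1 is female 1, M1 and M2 the males). Male 2 of FXR+/+ is the lowest library on all lists shown but the lymphocyte list, and male 1 of FXR-/- is the highest for the macrophage genes, endothelium, stellate cells and acinar genes.

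The 10 genes did not all vary alike. Over the 6 libraries, Pearson's r of a gene's log2 CPM with the mean of the other 9 was highest for *Adgre1* (0.93), *Fcgr3* (0.90) and *Csf1r* (0.89), and lowest for *C1qa* (0.59) and *Mrc1* (0.32). Among 10869 genes with at least 5 CPM, those whose log2 CPM was most like the mean of the 10 were *Fam43a* (r = 0.997), *Uchl1* (0.99), *Evl* (0.99), *Abcb6* (0.99) and *Ndufaf2* (0.99). None of these 5 was on a macrophage list, and the points share the same 6 libraries and their tissue makeup.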

How the data were processed

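Poly(A)-selected RNA of islets was sequenced in 6 libraries. The authors deposited whole-number counts per gene and per exon, not normalized. Reads were aligned with HISAT according to the submitters' processing notes; its version, the genome build used and the counting rule are not given in the sources used here. Exon positions matched GRCm38. Tables of the authors' own comparison (mean level, log2 fold change, p and q values) were not used. All per-sample columns were used.

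Counts were analysed in R 4.3.3 with edgeR 4.0.16 (filterByExpr with a minimum count of 10, TMM scaling, quasi-likelihood F test, terms for sex and genotype, Benjamini-Hochberg adjustment over all 14619 genes tested). DESeq2 1.42.0 was an alternative. CPM are TMM-scaled, and likeness was computed on log2(CPM + 0.01). The fit was tested on simulated data. With these totals 1 CPM is 19.0 to 31.7 counts. SD is over 3 libraries of a genotype, and SE is that of the log2 fold change in the edgeR fit over all 6 libraries.

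Members and lists were chosen with earlier results of these data known. Other genes were named by rule: the 3 most abundant of each list, any gene passing in either fit, and the 5 genes most like the members. Of these, 1 gene is not reported here. *Csf2rb*, *Fcgr2b* and *Lyz1* were added after their values were seen. Deviations from the genotype means correlated at 0.35 to 0.42 between same-numbered libraries of the genotypes and at most at 0.06 between others. The numbers were therefore taken to pair the libraries, although no label states a pairing and the female pair also shares its sex. The replicate block thus rests on a pairing read from the data that it tests. Alternatives were the replicate block, other terms, scaling, filters, exon sums and leaving out each library.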

Additional observations from a re-analysis of the deposited data

How the results depend on the processing

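None of the 10 macrophage genes passed an adjusted p of 0.05 under any of 16 alternatives, the replicate block among them. Their adjusted p ran from 0.112 to 0.997 over these. The number of all genes passing, 0 with sex and genotype in edgeR (1511 at an unadjusted p under 0.05), was 23 with the replicate block, which included none of the 10, 177 with DESeq2, 7 with a term for acinar RNA and 4 with exon counts summed per gene. The number of macrophage genes higher in FXR-/- fell from 8 to 5 with the acinar term, where *Adgre1* (-0.015), *Cd14* (-0.0056) and *Fcgr3* (-0.014) turned, and ran from 6 to 10 when single libraries were left out. Non-overlapping genes, counted in either direction, were 3 in all libraries and 5 in males alone. There was 1 with scaling by library size alone, which moved the median of all genes to -0.09. The count was 3 to 5 when libraries were left out, with 5 without male 1 of FXR+/+ or without female 1 of FXR-/-. Without male 2 of FXR+/+ it included *Lyz2*, lower in FXR-/-. Fewer libraries overlap less easily, and the share over all genes was not computed for these settings. A higher count in them is therefore not a stronger result.

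The median log2 fold change of the 10 genes ran from 0.09 to 0.48, with 0.15 without male 1 of FXR-/- and 0.19 without male 2 of FXR+/+, and the ratio of their sums from 1.13 to 1.31. Higher identity genes, 14 of 18, were 9 with exon sums and 12 to 18 when libraries were left out. Over single libraries left out, the log2 fold change ranged from -0.48 to 0.26 for *Lyz2*, -0.32 to 0.37 for *Mrc1*, -0.0058 to 0.38 for *Adgre1*, -0.12 to 1.11 for *Cd14* and -0.028 to 0.58 for *Fcgr3*. *Lyz2* was at 0.10 in males alone and *Fcgr3* at -0.43 with exon sums, which tested 8 of the 10 genes, *Adgre1* and *Mrc1* having too few counts. *C1qa*, *C1qb*, *C1qc*, *Cd68* and *Csf1r* stayed above 0 in all 16, but *Cd68* was at 0.22 and *Csf1r* at 0.24 without male 2 of FXR+/+, and *C1qb* at 0.27 without male 1 of FXR-/-. The causes of these turns were not tested.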
